A study of Arabidopsis thaliana with 12 samples.

Results

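Superoxide dismutases turn superoxide into hydrogen peroxide and oxygen, and plants hold 3 classes of them that differ in the metal at the active site. The genes described here are 7 Arabidopsis genes of these classes and the gene for the chaperone that loads copper into one class. They were chosen by gene ID, and all 8 were found among the 32678 genes of the count table. The iron enzymes are encoded by *FSD1* (AT4G25100), *FSD2* (AT5G51100) and *FSD3* (AT5G23310), the copper and zinc enzymes by *CSD1* (AT1G08830), *CSD2* (AT2G28190) and *CSD3* (AT5G18100), the mitochondrial manganese enzyme by *MSD1* (AT3G10920) and the copper chaperone by *CCS* (AT1G12520). FSD1 is found in the cytosol and the plastid, and FSD2 and FSD3 work in the plastid, as does CSD2, while CSD1 is cytosolic and CSD3 peroxisomal. In plants short of copper, the transcription factor SPL7 activates *FSD1* and the microRNA miR398, which lowers transcripts of *CSD1*, *CSD2* and *CCS*, so that an iron enzyme takes the place of copper enzymes. Whether the metal used by the superoxide dismutases shifts in the opposite case, when iron is short, is the question that the 4 groups allow to be described at the level of transcripts.

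RNA came from roots of 4 groups with 3 libraries each. These were *clf* without iron (*clf* -Fe), *clf* with sufficient iron (*clf* +Fe), wild type without iron (WT -Fe) and wild type with sufficient iron (WT +Fe). Wild type is Col-0, and *clf* carries the T-DNA allele *clf-29* of *CURLY LEAF*, a histone methyltransferase gene, in every tissue. All seedlings were grown for 12 days on B5 medium and then for 3 days on +Fe medium or on -Fe medium, which lacked iron and held the iron chelator ferrozine.

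Library totals lay between 18658428 and 28281420 counts. *CLF* had 10.3 to 15.8 CPM in *clf* libraries and 43.6 to 55.1 CPM in wild type libraries, where CPM is the count scaled to library size with TMM normalization. Of the iron-responsive genes used to check the labels, the transcription factor gene *bHLH38* had 279 to 375 CPM in -Fe and 0.169 to 5.28 CPM in +Fe libraries, and the ferritin gene *FER1* had 0.685 to 4.72 CPM in -Fe and 28.7 to 79.3 CPM in +Fe libraries. All 7 root markers had reads in every library, with *WOX5* the lowest at 20 reads or more. The summed CPM of 8 markers of green tissue was 46.7 to 325 in WT -Fe, 251 to 563 in WT +Fe, 111 to 241 in *clf* -Fe and 238 to 856 in *clf* +Fe libraries, so green tissue transcripts were not at 0 in these root samples. The library least correlated with the rest of its group is called the one that stands apart, so by this rule each group holds 1. These were the libraries numbered 1 of WT -Fe, WT +Fe and *clf* -Fe, and number 2 of *clf* +Fe. Calls of the 8 genes, and some other values, are also given without these 4 libraries. The replicates are described as biological in the study's methods, and each bulk sample mixes cell types, so fewer cells of a type and less RNA per cell cannot be told apart.

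The sequences of miR398 and of its matches are shown first, because they sort the genes without the use of expression values. Mature miR398 was read from the RefSeq annotation and genome (TAIR10.1), on chromosome 2 for miR398a-3p and on chromosome 5 for miR398b-3p, whose sequence miR398c-3p shares. Capitals mark the seed, bases 2 to 8, which all 3 have in common.
miR398a-3p: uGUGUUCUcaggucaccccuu
miR398b-3p: uGUGUUCUcaggucaccccug

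The best complementary stretch in the longest transcript of each gene was scored with 1 for a mismatch or an unpaired transcript base (at most 1 such base) and 0.5 for a G:U pair. The stretches of 3 genes of the set and of *COX5B-1*, a cytochrome c oxidase subunit gene known as a further miR398 target, are shown as DNA, 5′ to 3′ on the transcript strand, with capitals for Watson-Crick paired bases.
*CSD1*: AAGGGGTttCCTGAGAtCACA
*CSD2*: tgcGGGTGACCTGgGaAACAtA
*CCS*: CAttGGGaGACCTGgGAACACt
*COX5B-1*: AAGGtGTGACCTGAGAAtCACA

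The *CSD1* stretch lies in the 5' UTR and is split by an intron between exons 1 and 2 (chr1:2827177-2827685, plus strand). It scored 3, a score reached by 0.0146% of 27438 genes searched. The *CSD2* stretch is coding and lies in exon 4 (chr2:12015572-12015593, plus strand), with a score of 4 that 0.135% of genes reached. The *CCS* stretch is coding too, in exon 5 (chr1:4267521-4267542, minus strand), at 4.5 and 0.503%, and that of *COX5B-1* in the 5' UTR (chr3:5299204-5299225, plus strand) at 2 and 0.00729%. *FSD1* scored 5.5, which 5.49% of genes reached, and *FSD2*, *FSD3*, *CSD3* and *MSD1* scored 7, which 60.5% reached. The copper and zinc genes are thus not alike in this respect, since *CSD3* had no better match than the manganese gene. A match describes letters and is not evidence of cleavage in these roots.

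The short motif GTAC is the core of the sites that SPL7 binds, and it reads the same on either strand. In the 250 bases before the annotated gene start it occurred at least once in 34.3% of 27443 protein-coding genes and at least 2 times in 7.67%. It was present 1 time in *FSD1*, *CSD3* and *CCS* and 2 times in *CSD1*, and was not found in this window of *FSD2*, *FSD3*, *CSD2* and *MSD1*. The windows of *FSD1* (chr4:12887012-12887261, minus strand), the gene with the largest difference below, and of *CSD1* (chr1:2826810-2827059, plus strand), the only gene of the set with 2 matches, are given with GTAC in capitals.
*FSD1*: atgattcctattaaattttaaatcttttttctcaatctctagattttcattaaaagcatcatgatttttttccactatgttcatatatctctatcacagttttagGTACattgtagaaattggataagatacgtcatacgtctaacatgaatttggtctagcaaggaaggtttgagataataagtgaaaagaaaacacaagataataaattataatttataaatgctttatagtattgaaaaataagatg
*CSD1*: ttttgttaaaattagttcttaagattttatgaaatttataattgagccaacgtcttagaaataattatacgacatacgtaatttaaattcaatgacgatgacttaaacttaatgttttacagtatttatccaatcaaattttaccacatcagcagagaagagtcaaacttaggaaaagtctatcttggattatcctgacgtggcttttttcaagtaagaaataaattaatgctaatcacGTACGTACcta

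Levels of different genes were compared per length, as the FPKM that the authors deposited. Averaged over the 4 groups, *CSD1* had the highest level at 286 FPKM, followed by *MSD1* at 226, *FSD1* at 152, *CSD2* at 82.9 and *CCS* at 31.9 FPKM. *FSD3* (6.61 FPKM), *CSD3* (6.49 FPKM) and *FSD2* (2.39 FPKM) were low, and the lowest single value was 30 reads, for *FSD2* in WT +Fe replicate 2. The order differed between the groups. *MSD1* was above *CSD1* without iron (277 and 235 FPKM in WT -Fe, 225 and 212 FPKM in *clf* -Fe) and under it with iron (207 and 342 FPKM in WT +Fe, 194 and 353 FPKM in *clf* +Fe), and in *clf* -Fe the 2 genes were within 1 SD of each other (16.8 FPKM for *MSD1* and 33.2 FPKM for *CSD1*). *FSD1* was at 68.2 FPKM and *CSD2* at 72.1 FPKM in WT -Fe, within the SD of *CSD2* (14.8 FPKM), while *FSD1* had the higher mean in the other 3 groups. The closeness of *FSD1* and *CSD2* in WT -Fe depends on the gene length used, as given with their ratio below. Root superoxide dismutase transcripts were mostly those of 4 genes, *CSD1*, *MSD1*, *FSD1* and *CSD2*. All 8 genes passed the filter on low counts.

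**Figure D1:**
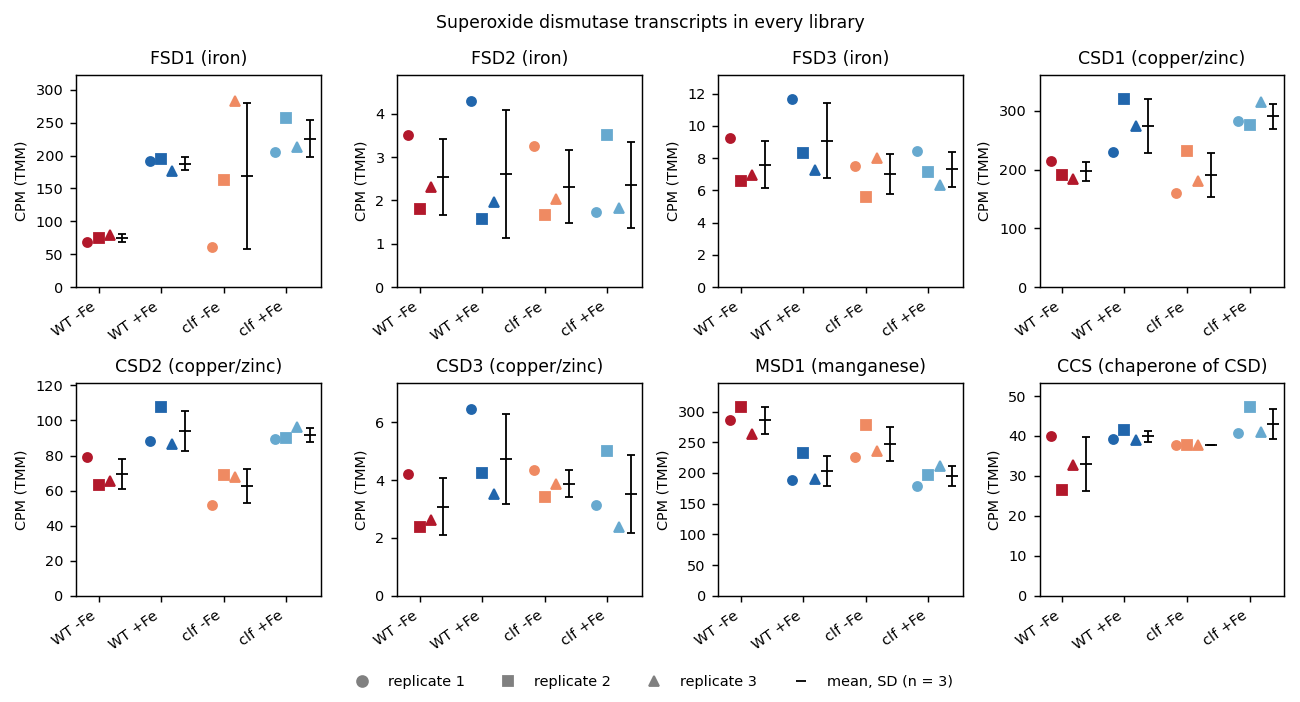
CPM (TMM-normalized) of the 8 genes in each of the 12 libraries, by group, with the mean and SD (n = 3) to the right of the points; each vertical axis starts at 0. *FSD1* lies at 68.0 to 79.7 CPM in WT -Fe against 176 to 195 CPM in WT +Fe, and spreads from 60.9 to 283 CPM in *clf* -Fe.

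In iron deficient wild type roots the iron enzyme gene *FSD1* was at 2.53-fold lower mean CPM than with iron, the copper enzyme genes *CSD1* and *CSD2* were at 1.40- and 1.36-fold lower means, and the manganese gene *MSD1* was at a 1.40-fold higher mean. In none of these genes did the -Fe and +Fe libraries overlap. None of the 8 genes passed an adjusted p of 0.05 in edgeR's quasi-likelihood test, so each of these differences is given with its own spread and p. No gene of the set that uses copper was higher without iron. The 8 green tissue markers had a median log2 fold change of -1.30 in the same comparison, and 1 of them, *PSBO1*, fell (-1.82, SE 0.31, adjusted p = 0.00919, edgeR). Their summed level was 325, 46.7 and 66 CPM in WT -Fe, against 563, 274 and 251 CPM in WT +Fe replicates 1 to 3. The part of green tissue in the differences of these genes was not tested.

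*FSD1* had 68.0, 74.8 and 79.7 CPM in WT -Fe replicates 1, 2 and 3, against 192, 195 and 176 CPM in WT +Fe replicates 1, 2 and 3. The highest library without iron was thus well under the lowest with iron. The log2 fold change was -1.34 (SE 0.40, adjusted p = 0.0893, edgeR, unadjusted p = 0.00612). The gene was called by DESeq2 (-1.33, adjusted p = 0.0118) and when the model held only the 6 wild type libraries (-1.34, adjusted p = 0.00708). It was also called in edgeR's model when *clf* -Fe replicate 1 (adjusted p = 0.00385) or replicate 3 (adjusted p = 0.0321) was left out, libraries in which *FSD1* is at its extremes and which share the estimate of spread. Most settings did not call *FSD1*. It was called in 2 of the 12 edgeR fits without single libraries (highest adjusted p = 0.242) and in 3 of the 10 other alternatives.

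*MSD1* had 287, 308 and 263 CPM in WT -Fe, against 188, 232 and 190.1 CPM in WT +Fe replicates 1 to 3. Every library without iron was higher than every library with it. Its log2 fold change was 0.49 (SE 0.14, adjusted p = 0.0839, edgeR), and 0.50 (adjusted p = 0.0177) in DESeq2.

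*CSD1* had 215, 190 and 185 CPM in WT -Fe, against 229, 320.5 and 274 CPM in WT +Fe replicates 1 to 3. *CSD2* had 79.4, 63.3 and 65.6 CPM in WT -Fe, against 88.5, 107 and 86.6 CPM in WT +Fe. WT -Fe replicate 1 was the highest library without iron for each gene, and still lay under all +Fe libraries. By edgeR's test *CSD1* differed by -0.48 on the log2 scale (SE 0.17, adjusted p = 0.156) and *CSD2* by -0.44 (SE 0.15, adjusted p = 0.139). *CCS*, whose product hands copper to these enzymes, had 40.0, 26.4 and 32.8 CPM in WT -Fe, against 39.2, 41.4 and 39.0 CPM in WT +Fe. Here the groups overlapped through WT -Fe replicate 1, and the log2 fold change was -0.27 (SE 0.15, adjusted p = 0.366).

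The 3 low genes did not separate the groups. *FSD2* had 1.80 to 3.52 CPM in WT -Fe and 1.56 to 4.30 CPM in WT +Fe (log2 fold change -0.04, SE 0.46). *FSD3* had 6.59 to 9.27 CPM and 7.29 to 11.7 CPM (-0.26, SE 0.23), and *CSD3* 2.39 to 4.21 CPM and 3.50 to 6.46 CPM (-0.62, SE 0.34), in WT -Fe and WT +Fe in that order. The largest value of each was in WT +Fe replicate 1, the library with the most green marker transcripts among the wild type samples at 563 summed CPM. The part of green tissue in these values was not tested.

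Read against all 20168 genes tested, 0 of the 8 genes were called in wild type at an adjusted p under 0.05, where 4.41% of all genes were. At an unadjusted p under 0.05, 4 of 8 were counted (*FSD1*, *CSD1*, *CSD2* and *MSD1*), against 18.6% of all genes. The same 4 of 8 had groups that did not overlap, against 22.1% of all genes. DESeq2 called 2 of 8 (*FSD1* and *MSD1*), against 8.15% of its genes. Without the 4 libraries that stand apart, edgeR called 5 of 8 (*FSD1*, *CSD1*, *CSD2* and *CCS* lower, *MSD1* higher), against 27.3% of all genes. That choice makes each group tighter, so the larger count is no independent check. The median log2 fold change of the 8 genes was -0.35, beside -0.003 over all genes.

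In iron deficient *clf* roots *CSD1*, *CSD2* and *MSD1* lay on the same side as in wild type, while *FSD1* did not separate the groups. *CSD1* and *CSD2* were at 1.52- and 1.46-fold lower mean CPM in *clf* -Fe than in *clf* +Fe, and *MSD1* was at a 1.26-fold higher mean, again with no overlap between the libraries. None of the 8 genes passed the adjusted threshold in edgeR's test.

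*FSD1* had 60.9, 163 and 283 CPM in *clf* -Fe replicates 1, 2 and 3, against 206, 258 and 213 CPM in *clf* +Fe replicates 1, 2 and 3. One library without iron was lower than any other of the 12, and another was higher than any other of the 12. The log2 fold change was -0.42 (SE 0.39, adjusted p = 0.721, edgeR). Leaving out *clf* -Fe replicate 1 gave -0.02, leaving out replicate 3 of that group gave -1.02, and the value was 0.09 without the 4 libraries that stand apart, and none of these passed the threshold. In the same 3 libraries *FER1* had 0.685, 2.76 and 4.72 CPM, and *CPN20*, the plastid co-chaperonin gene whose product promotes FSD1 activity, had 102, 153 and 169 CPM, in the same order as *FSD1*. An order over 3 libraries is only a description and was not tested, and the lowest *FER1* value rests on 17 reads. *bHLH38* was at 326, 339 and 281 CPM, all far above the +Fe level of at most 5.28 CPM. Summed green markers were 122, 111 and 241 CPM, with the highest value in the library highest for *FSD1*, and their part in the spread was not tested.

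*CSD1* had 160.1, 232 and 180.3 CPM in *clf* -Fe, against 282, 275 and 315 CPM in *clf* +Fe replicates 1 to 3. The log2 fold change was -0.61 (SE 0.17, adjusted p = 0.119, edgeR), and DESeq2 called the gene (adjusted p = 0.0296), as did limma on log2(FPKM + 1) (adjusted p = 0.0461, and 0.0627 with no filter on low values). *CSD2* had 51.6, 69.0 and 67.6 CPM in *clf* -Fe, against 89.2, 89.9 and 96.3 CPM in *clf* +Fe. Its log2 fold change was -0.55 (SE 0.15, adjusted p = 0.11, edgeR), with an adjusted p of 0.0297 in DESeq2. In both genes every -Fe library lay under every +Fe library, as in wild type.

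*MSD1* had 226, 278 and 236 CPM in *clf* -Fe, against 178.5, 197 and 211 CPM in *clf* +Fe replicates 1 to 3, a difference of 0.33 on the log2 scale (SE 0.14, adjusted p = 0.337, edgeR). *CCS* had 37.6, 37.8 and 37.7 CPM in *clf* -Fe, against 40.7, 47.3 and 41.1 CPM in *clf* +Fe. These groups did not overlap, yet the difference was small (-0.19, SE 0.15, adjusted p = 0.651). The low genes *FSD2*, *FSD3* and *CSD3* overlapped between the groups, with log2 fold changes of -0.02, -0.05 and 0.14.

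At an adjusted p under 0.05, 0 of 8 genes were called in *clf*, where 1.77% of all genes were, and at an unadjusted p under 0.05, 3 of 8 were counted (*CSD1*, *CSD2* and *MSD1*), against 13.4% of all genes. In 4 of 8 (*CSD1*, *CSD2*, *MSD1* and *CCS*) the groups did not overlap, against 22.5% of all genes. DESeq2 called 2 of 8 (*CSD1* and *CSD2*), against 4.37% of its genes. The same 2 were called without the 4 libraries that stand apart (adjusted p = 0.0114 and 0.0176, edgeR), against 14.6% of all genes. The median log2 fold change was -0.12, beside -0.011 over all genes.

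**Figure D2:**
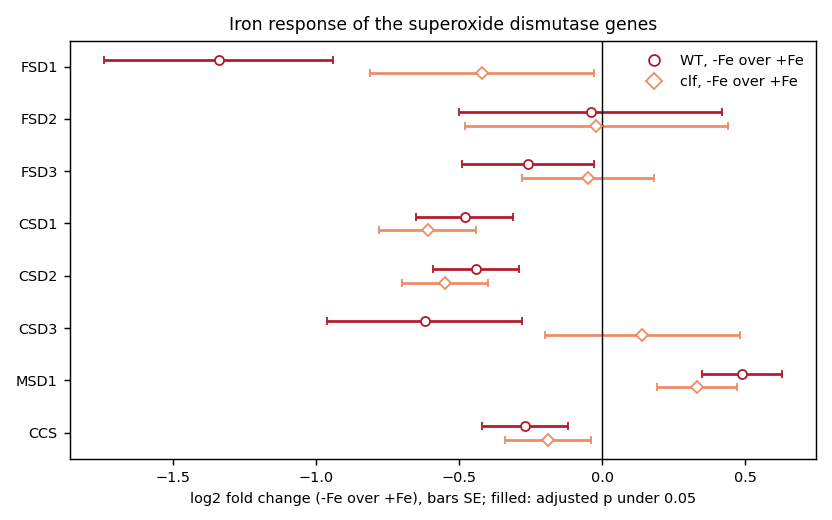
Log2 fold change of -Fe over +Fe for the 8 genes in wild type (circles) and *clf* (diamonds), with bars for the SE; filled symbols would mark an adjusted p under 0.05 in edgeR's test, and none is filled. *FSD1* lies at -1.34 in wild type and at -0.42 in *clf*, while *CSD1*, *CSD2* and *MSD1* lie on the same side of 0 in each.

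The make-up of the superoxide dismutase transcripts by metal was described from FPKM, as the percent of the sum over the 7 enzyme genes in each library, without *CCS* and with no test. In wild type, the iron class took 10.6, 11.4 and 13% in -Fe replicates 1 to 3, against 25.6, 20.7 and 22% in +Fe replicates 1 to 3, and the manganese class took 39.9, 44.5 and 40.6%, against 24.4, 24.7 and 23.8%. The copper and zinc class took 49.5, 44.1 and 46.4% in WT -Fe, against 50, 54.7 and 54.3% in WT +Fe. With less iron the share of the iron class was thus smaller and that of the manganese class larger in every wild type library, and the copper and zinc class was not larger in any. The group means were 11.7% ± 1.21 and 22.7% ± 2.53 for iron, 41.7% ± 2.49 and 24.3% ± 0.471 for manganese, and 46.7% ± 2.72 and 53% ± 2.57 for copper and zinc (SD, n = 3 each, WT -Fe then WT +Fe).

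In *clf*, the manganese class took 40.9, 34.6 and 29% in -Fe replicates 1 to 3, against 21.5, 22 and 23.1% in +Fe replicates 1 to 3, and the copper and zinc class took 46.8, 45.3 and 36.8%, against 53.8, 49.4 and 53.9%. The iron class ranged from 12.2% over 20.1% to 34.2% in *clf* -Fe replicates 1, 2 and 3, against 24.7, 28.5 and 23% in *clf* +Fe replicates 1 to 3. The manganese and copper classes thus kept the groups apart in *clf*, and the iron class did not. The mean iron share was 22.2% ± 11.1 in *clf* -Fe and 25.4% ± 2.84 in *clf* +Fe (SD, n = 3 each). Shares within a library add up, so the 3 classes do not vary independently.

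**Figure D3:**
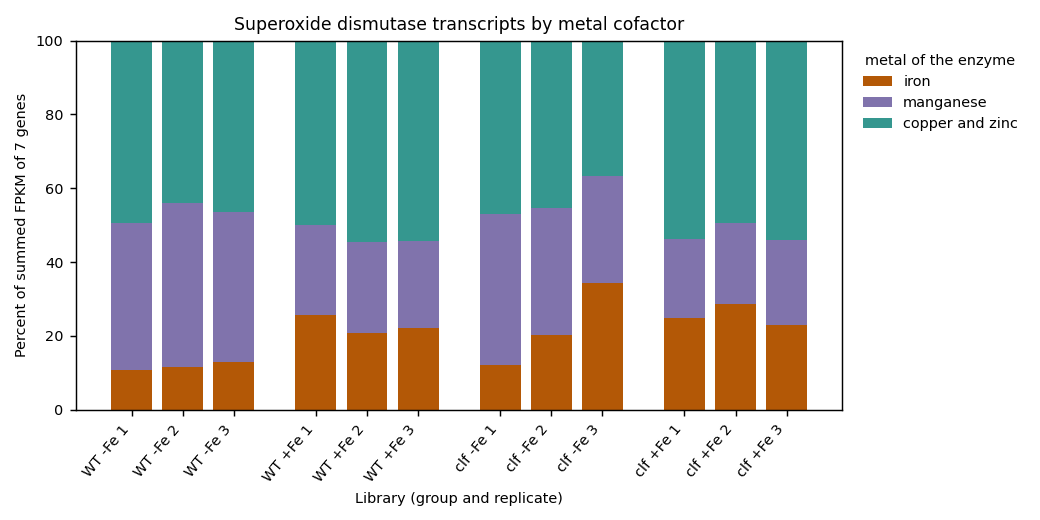
Percent of the summed FPKM of the 7 enzyme genes by the metal of the enzyme, 1 bar for each library, grouped as WT -Fe, WT +Fe, *clf* -Fe and *clf* +Fe with replicates 1 to 3. The manganese share is 39.9 to 44.5% in WT -Fe and 23.8 to 24.7% in WT +Fe, and the iron share runs from 12.2 to 34.2% in *clf* -Fe.

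The sum of the 7 genes was also lower without iron, at 758, 637 and 606 FPKM in WT -Fe against 827, 940 and 790 FPKM in WT +Fe, and at 520, 704 and 749 FPKM in *clf* -Fe against 805, 907 and 903 FPKM in *clf* +Fe. The log2 ratio of *FSD1* over *CSD2* FPKM, which sets an iron enzyme that is also found in the plastid against the plastid copper enzyme, was -0.39, 0.08 and 0.12 in WT -Fe, against 0.96, 0.70 and 0.87 in WT +Fe. In *clf* it was 0.08, 1.08 and 1.90 without iron, against 1.04, 1.36 and 0.99 with iron. The ratio was thus lower without iron in every wild type library, since *FSD1* differed by more than *CSD2*, and overlapped in *clf*. With CPM over annotation length in place of FPKM, the ratio was -0.79, -0.32 and -0.28 in WT -Fe, against 0.56, 0.3 and 0.47 in WT +Fe. In *clf* it was then -0.32, 0.68 and 1.5 without iron, against 0.64, 0.96 and 0.59 with iron. The level of the ratio thus depends on the gene length used.

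Between the genotypes without iron, *FSD1* had the largest difference of the 8 genes. In *clf* -Fe its mean was 2.28 times that of WT -Fe, yet *clf* -Fe replicate 1 at 60.9 CPM lay under all 3 WT -Fe libraries, and the log2 fold change of 1.19 (SE 0.40) had an adjusted p of 0.464 in edgeR's test and 0.155 in DESeq2. Without *clf* -Fe replicate 1 the log2 fold change was 1.59 (adjusted p = 0.0181), and without *clf* -Fe replicate 3 it was 0.60 (adjusted p = 0.814), so the call depended on which of these libraries was kept. The other 7 genes had log2 fold changes from -0.21 (*MSD1*) to 0.33 (*CSD3*), with SE from 0.14 to 0.46. At an adjusted p under 0.05, 0 of 8 genes were called (0.134% of all genes by edgeR, 0.878% by DESeq2), 1 of 8 had an unadjusted p under 0.05 (7.72% of all genes) and in 0 of 8 did the groups not overlap (13.9% of all genes). Without the 4 libraries that stand apart, 1 of 8 was called (*FSD1*, 1.53, adjusted p = 0.00328), against 7.98% of all genes.

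With sufficient iron, *FSD1* had 206, 258 and 213 CPM in *clf*, against 192, 195 and 176 CPM in wild type replicates 1 to 3, with no overlap, and the log2 fold change was 0.26 (adjusted p = 1 in edgeR's test, SE 0.39). The remaining genes lay between -0.43 (*CSD3*, SE 0.34) and 0.11 (*CCS*, SE 0.15). Of the 8 genes, 0 were called (0.0694% of all genes by edgeR, 0.324% by DESeq2, 2.59% without the 4 libraries that stand apart), 0 had an unadjusted p under 0.05 (3.37% of all genes) and 1 had groups that did not overlap (8.83% of all genes).

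The difference between the iron responses, *clf* minus wild type, was 0.92 for *FSD1* (SE 0.55, adjusted p = 1, unadjusted p = 0.122, edgeR), with values of 1.32 when *clf* -Fe replicate 1 was left out and 0.32 when replicate 3 was. The response of *FSD1* was therefore not shown to differ between the genotypes. For *CSD1*, *CSD2* and *MSD1* the difference was -0.13 (SE 0.24), -0.11 (SE 0.21) and -0.16 (SE 0.20). In this comparison 0 of 8 genes were called, as were 0% of all genes by edgeR, 0.0119% by DESeq2 and 2.25% without the 4 libraries that stand apart, and 0 of 8 had an unadjusted p under 0.05, against 1.59% of all genes. Some other edgeR fits did give an unadjusted p under 0.05. These were *FSD1* without *clf* -Fe replicate 1, and *CSD3* without WT -Fe replicate 1 or *clf* +Fe replicate 2. Without the 4 libraries that stand apart both genes had one, and none was called in any of these fits.

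Transcripts of genes around copper were described in the same roots, without a measure of copper itself. In the list of 11 copper uptake genes and regulators, 10 were tested (*COPT3* had too few reads). Iron deficiency raised 2 of them in wild type and 2 in *clf* and lowered none by edgeR's test, where 4.41% of all genes were called in wild type and 1.77% in *clf*. *COPT2*, a copper importer of the root surface, had 33.2, 131.5 and 119.9 CPM in WT -Fe, against 2.66, 8.66 and 8.01 CPM in WT +Fe, and 74.2, 139.6 and 109.5 CPM in *clf* -Fe, against 8.75, 2.87 and 10.5 CPM in *clf* +Fe. It rose by edgeR's test in wild type, where the log2 fold change was 3.88 (adjusted p = 0.00948, SE 0.66), and in *clf*, with 3.87 (SE 0.66, adjusted p = 0.0151). *CITF1*, a bHLH factor gene of copper uptake, rose in wild type (2.57, SE 0.62, adjusted p = 0.0395, and 0.0689 with a replicate block) and had a log2 fold change of 2.22 (adjusted p = 0.104) in *clf*. *FRO5*, a copper reductase gene, rose in *clf* (3.06, SE 0.60, adjusted p = 0.0288) and had 1.67 (adjusted p = 0.152) in wild type. Its neighbour and near copy *FRO4*, with which it may share reads, had 1.60 (adjusted p = 0.393) in wild type and 3.29 (adjusted p = 0.142) in *clf*. The median of the list was 0.30 in wild type and 0.27 in *clf*.

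Among 8 genes for copper chaperones and copper ATPases, 0 were called in either genotype by edgeR, beside 4.41% of all genes in wild type and 1.77% in *clf*. Other settings called up to 3 of the 4 named here, which were picked by smallest p. In wild type DESeq2 called 8.15% of its genes, and edgeR without the 4 libraries that stand apart called 27.3%. In *clf* these shares were 4.37% and 14.6%. *CCH*, a copper chaperone, had 177, 282.5 and 212 CPM in WT -Fe, against 99.8, 154 and 137 CPM in WT +Fe (log2 fold change 0.78, adjusted p = 0.0586 in edgeR's test, 0.0134 with a replicate block and 0.0107 in DESeq2), and 0.67 (adjusted p = 0.155) in *clf*. The groups did not overlap in wild type. *HMA8*, which moves copper into the thylakoid, had -1.34 (adjusted p = 0.129) and -0.76 (adjusted p = 0.516), and the chaperone genes *ATX1* and *COX17* lay between 0.32 and 0.37 in wild type and *clf*. The part of green tissue in *HMA8* was not tested. The list medians were -0.04 in wild type and 0.08 in *clf*.

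Of 12 genes for other copper proteins, 2 fell in wild type and 1 in *clf* by edgeR's test, beside the same 4.41% and 1.77% of all genes called. *ARPN*, which encodes the small copper protein plantacyanin, had 6.48, 6.45 and 5.25 CPM in WT -Fe, against 13.9, 18.4 and 15.2 CPM in WT +Fe. It fell in wild type, where the log2 fold change was -1.38 (SE 0.17, adjusted p = 0.0015), and also in *clf*, where it was -1.15 (SE 0.17, adjusted p = 0.00561). *PETE2*, the gene of plastocyanin in photosynthesis, fell in wild type (-1.87, SE 0.44, adjusted p = 0.036, and 0.0534 with a replicate block) and had -1.51 (adjusted p = 0.125) in *clf*. The 8 green tissue markers had medians of -1.30 in wild type and -1.67 in *clf*, so *PETE2* moved with them, and their part in it was not tested. The laccase genes *LAC7* (-1.80, adjusted p = 0.0918, and -0.90 in *clf*) and *LAC17* (-0.37, and 0.33 in *clf*) were not called by edgeR, while DESeq2 called *LAC7* in wild type (adjusted p = 0.00619). The list medians were -0.40 in wild type and -0.32 in *clf*. *COX5B-1*, whose miR398 stretch paired best of those shown, had a log2 fold change of -0.12 (SE 0.15) in wild type and -0.04 (SE 0.15) in *clf*. The genes of the set shown with a stretch had -0.48 and -0.61 (*CSD1*), -0.44 and -0.55 (*CSD2*) and -0.27 and -0.19 (*CCS*). The part of miR398 in these values was not tested.

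The 6 microRNA genes of the copper response had 0 to 3 reads per library (*MIR398A* at most 3, *MIR398B* 0 in all, *MIR398C* at most 2), and none was tested. These libraries were made from mRNA, so mature miR398 was not measured, and no level of it can be set beside *CSD1* and *CSD2*.

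**Figure D4:**
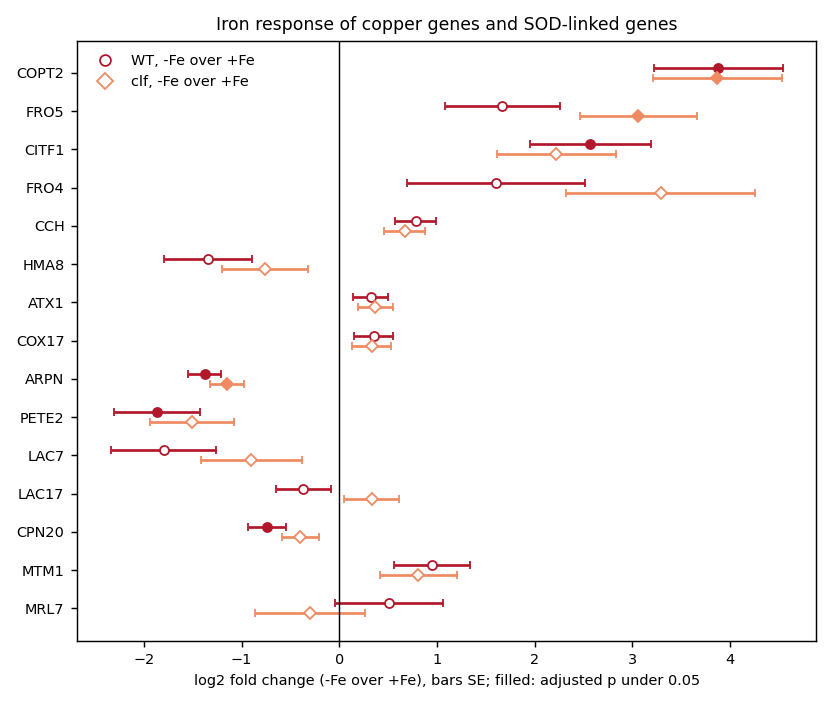
Log2 fold change of -Fe over +Fe in wild type (circles) and *clf* (diamonds) for the copper genes and genes linked to superoxide dismutases that the fixed rule names, with bars for the SE and filled symbols for an adjusted p under 0.05. *COPT2* (3.88 and 3.87) and *ARPN* (-1.38 and -1.15) are filled in each genotype.

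Of 4 further genes linked to the enzymes, 3 were tested, and *MSD2* was not. *CPN20* fell in wild type, with 119.5, 113.6 and 104.7 CPM in WT -Fe against 221, 175 and 167 CPM in WT +Fe (log2 fold change -0.74, SE 0.19, adjusted p = 0.0482, and 0.075 with a replicate block), and had -0.40 (adjusted p = 0.378) in *clf*. In WT -Fe and WT +Fe its highest library was replicate 1, as for the summed green markers (325 and 563 CPM). The part of green tissue in *CPN20* was not tested. *MTM1*, a mitochondrial carrier gene that in yeast is needed for an active manganese enzyme, had 0.95 (adjusted p = 0.223) in wild type and 0.81 (adjusted p = 0.407) in *clf*, and *MRL7* had 0.51 and -0.30, neither gene called by edgeR. Without the 4 libraries that stand apart, *MTM1* was called by edgeR in wild type (0.74, adjusted p = 0.00339), as were 27.3% of all genes.

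Across the 12 libraries, the log2 CPM of *CSD1* and *CSD2* correlated at a Pearson r of 0.933, the highest among pairs of the 8 genes, and *MSD1* and *CCS* had the lowest at -0.65. *FSD1* correlated with *CSD1* at 0.627 and with *MSD1* at -0.623. Among all tested genes, those most like *FSD1* were AT5G57345 (0.956), AT1G03400 (0.934), AT4G33110 (0.931), AT5G14680 (0.929) and AT5G54980 (0.924), and those most like *CSD2* were AT1G49840 (0.955), AT5G23100 (0.952), *CEST* (AT5G44650, 0.939), AT4G24090 (0.937) and *CSD1*. These are descriptions over 12 libraries that share groups, genotype and depth, and carry no test.

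On the TAIR10.1 annotation the genes lie apart on chromosomes 1 to 5, and counts of 3 of them are less certain. *CSD1* (chromosome 1, 2827060 to 2829315) overlaps AT1G08840 on the other strand over 211 bases, and *CSD3* (chromosome 5, 5987187 to 5988885) overlaps AT5G02875 over 405 bases and AT5G18110 over 142 bases. *FSD2* shares 34 of its 1686 stretches of 50 bases with AT4G00651. *FSD1* (chromosome 4, 12884300 to 12887011), *CSD2* (chromosome 2, 12014412 to 12016569) and *MSD1* (chromosome 3, 3417940 to 3419892) overlap no annotated gene and share no such stretch.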

How the data were processed

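Root RNA was sequenced as paired reads of 150 bp from a stranded mRNA kit. The authors aligned the reads to TAIR10 (TopHat2 in the submitters' processing notes, with no version), counted them per gene with HTSeq in union mode and deposited these counts. Whether that counting used strand is not known from the labels or methods. The deposited FPKM were made by the authors from the counts and a gene length. The unnamed last column of the count table, which holds a word in a single cell, was not used.

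A single model of the 4 groups was fitted to the counts of all 12 libraries with edgeR 4.0.16 in R 4.3.3, using TMM normalization, filterByExpr and a robust quasi-likelihood fit (8 residual degrees of freedom, 20168 genes). All p-values without another name come from its quasi-likelihood test, adjusted by Benjamini-Hochberg over those genes, and a gene was called at an adjusted p under 0.05. Log2 CPM used a prior count of 2. After the main fit, the same code was run on counts simulated from its mean levels and dispersions. The common dispersion had a square root of 0.302. Alternatives were DESeq2 1.42.0, limma 3.58.1 on log2(FPKM + 1) or log2(FPKM + 0.1), RLE factors, other filters, a replicate block, only the 6 libraries compared, and leaving out each library or the 4 that stand apart.

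Deviations of libraries with the same replicate number had positive correlations, each over 0.1, in some pairs of groups. They were 0.616, 0.440 and 0.463 between WT -Fe and WT +Fe, and 0.448, 0.541 and 0.165 between *clf* -Fe and WT -Fe. The main tests did not use this pairing by number. A replicate block over all groups was run as an alternative. The pairing is weak in places: *clf* -Fe and WT -Fe replicate 3 correlated more with another number (0.306), and in wild type replicates 2 and 3 the highest values with another number were 0.412 and 0.429. In the other pairs of groups 2 of 3 such correlations were negative.

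The 8 genes and the lists were chosen with earlier results of these data known. The rule names all 8 genes, up to 4 of each list with the smallest unadjusted p over the pairwise comparisons, *CLF*, *FER1* and *bHLH38*, and the 5 genes most correlated with *FSD1* and with *CSD2*. *COX5B-1*, *WOX5*, *PSBO1* and untested list genes were named outside it. Sequences and positions are from RefSeq TAIR10.1. An unpaired base in the miR398 search was allowed after a search without one had been run.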

Additional observations from a re-analysis of the deposited data

How the results depend on the processing

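Among the 8 genes, 0 were called in each comparison by edgeR. In wild type, iron deficiency gave 2 with DESeq2, 1 with only the 6 libraries compared, 5 without the 4 libraries that stand apart and 0 to 1 when single libraries were left out. In *clf* it gave 2 with DESeq2, 1 with limma at either pseudocount, 0 with limma and no filter, and 2 without the 4 libraries. Between genotypes without iron, 1 was called without the 4 libraries, and 0 to 1 when single libraries were left out (1 without *clf* -Fe replicate 1). The replicate block changed no call of the 8 genes, and *FSD1* in wild type had -1.36 with it (adjusted p = 0.083). With it *FSD2* in wild type turned to 0.01. Without the 4 libraries, *FSD2* was at 0.21 in wild type and 0.06 in *clf*, *FSD1* at 0.09 in *clf*, *CSD1* and *CSD2* at 0.14 and 0.08 in *clf* over wild type without iron, and at 0.13 and 0.15 in the difference between the iron responses. With single libraries left out, signs turned for *FSD2* (-0.35 to 0.53 in wild type, -0.34 to 0.37 in *clf*), *FSD3* (-0.17 to 0.07) and *CSD3* (-0.07 to 0.46) in *clf*, *MRL7* (-0.33 to 0.94 in wild type, -0.60 to 0.12 in *clf*), *CSD1* (-0.03 to 0.21), *CSD2* (-0.09 to 0.07) and *MSD1* (-0.12 to 0.05) in *clf* over wild type with iron, *CSD1* (-0.21 to 0.07) without iron, and *CSD2* (-0.22 to 0.01) in the difference of responses. None of these was called, and the cause was not tested. Over the 12 fits without single libraries, *ARPN* was called in 12 in each genotype and *COPT2* in 12 in wild type and 9 in *clf*. *FRO5* was called in 6 in *clf* (highest adjusted p = 0.129), and in wild type *CITF1* in 4 (0.154), *PETE2* in 3 (0.137) and *CPN20* in 2 (0.174). Of the copper and linked genes that edgeR did not call, those called over the other 10 alternatives were, in wild type, *CCH* in 5, *HMA8*, *LAC7* and *FRO5* in 2 each, and *ATX1*, *MTM1* and *FRO4* in 1 each, and in *clf*, *CCH* and *FRO4* in 2 each and *HMA8*, *ATX1* and *LAC7* in 1 each. *CITF1* was called in 2 of 9 and *PETE2* in 3 of 10 in *clf*. Without WT -Fe replicate 1 *CCH* was called in wild type (0.92, adjusted p = 0.0252), and without WT +Fe replicate 1 *LAC7* was (-2.23, adjusted p = 0.0161). With CPM over annotation length in place of FPKM, the iron share was 9.04% in WT -Fe, 18% in WT +Fe and 20.1% in *clf* +Fe, the copper and zinc share 56.2% in WT +Fe and 56.1% in *clf* +Fe, and the manganese share 25.8% in WT +Fe and 23.8% in *clf* +Fe. The lowest library had 30 reads for *FSD2*, 51 for *CSD3* and 122 for *FSD3*.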
